A study of Mus musculus with 2 samples.

Results

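The genes that build cholesterol and fatty acids were followed across the cell types of mouse entorhinal cortex, in nuclei from mice given N-oleoyl-leucine (C18:1-Leu, OLE) and from mice given its vehicle. Members were chosen by symbol and make 33 of the 31053 genes in the files. They fall into blocks by role, with 7 genes of the mevalonate pathway, 10 of the path from squalene to cholesterol, 4 that control SREBP, 2 of sterol transport and turnover, 3 of fatty acid synthesis and 7 of elongation and desaturation. The first 2 blocks are called the 17 sterol enzymes here, and the last 2 the 10 fatty acid enzymes.

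All animals were male APP/PS1 mice, which carry mutant human APP and mutant presenilin 1 transgenes under the mouse prion protein promoter and deposit amyloid. A group received OLE at 25 mg/kg/day and the other DMSO as vehicle, both through alkaline drinking water. Dosing began at 15 months and ended at 18 months, the age at which the cortex was taken. Nuclei of 5 mice were pooled into 1 library per group and sequenced by a 10X 3′ method, and no wild-type library is included. With 1 library per group no test was possible, mouse-to-mouse spread cannot be seen, and every interval below covers counting error at 95% only.

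The vehicle library held 6745 nuclei with a median of 3989 UMIs (unique molecular identifiers, each 1 captured RNA molecule), and the OLE library 6173 nuclei with a median of 6392. Removal of likely doublets left 6373 and 5862 nuclei in 25 clusters, and 14 barcodes occurred in both libraries. Clusters were called after the markers they held: 1935 and 1899 glutamatergic-like nuclei (vehicle and OLE, in this order throughout), 334 and 349 GABAergic-like, 588 and 529 oligodendrocyte-like, 101 and 84 OPC-like (oligodendrocyte precursors), 334 and 268 microglia-like, and 119 and 136 astrocyte-like. A pair of unnamed clusters split by library, the first holding 2245 vehicle and 307 OLE nuclei and the other 229 and 1720. They were summed as the low-UMI clusters and kept apart. Their UMIs were few beside glutamatergic-like nuclei (medians of 20939 and 19073). The medians were 2305 and 1361 in the first, 4994 and 5047 in the other, and 2362 and 4740 together. Oligodendrocyte-like nuclei had 3493.5 and 3085. Ratios of OLE to vehicle in the low-UMI clusters thus compare mostly different clusters of unlike depth. Astrocyte markers summed to 30788 and 32755 UMIs per 1000000 in astrocyte-like nuclei and at most 6728 in the other 5 types, and oligodendrocyte markers to 20938 and 23231 in oligodendrocyte-like nuclei and at most 845 in the others. Also outside the 6 types were unnamed clusters of 361 and 451 nuclei and of 32 and 22. A vascular leptomeningeal-like cluster held 84 and 82 nuclei and a mural-like cluster 11 and 15. Endothelial cells were not separated. Levels are UMIs per 1000000 UMIs of the same cell type, and nuclei hold unspliced RNA, so the counts include introns.

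Brain cholesterol is made inside the brain, because the blood-brain barrier keeps lipoproteins of the circulation out. Acetyl-CoA is turned into mevalonate and isoprenoids in the cytosol, and squalene is then oxidised, closed into a ring and trimmed to cholesterol by enzymes of the endoplasmic reticulum (ER) membrane. SREBP-2, the product of Srebf2, and SREBP-1, the product of Srebf1, drive these genes and those of fatty acid synthesis once SCAP carries them out of the ER, and INSIG1 holds them there when sterols abound. In the adult brain astrocytes are known as a main source of cholesterol, oligodendrocytes use large amounts for myelin, and neurons remove it by CYP46A1.

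RefSeq promoter windows (GRCm38.p6, 250 bases before to 50 after each start) were at hand for 26 of the 33 genes, and Fdps, Fdft1, Sqle, Stard4, Scd1, Scd2 and Fads1 were not among them. They were searched on both strands for the classic sterol regulatory element, TCACNCCAC, and for the CCAAT box, a site of the SREBP partner NF-Y. No member window had an overlap between the 2 motifs. Only Hmgcs1 held the sterol regulatory element, 137 bases before its start, against 1.44% of 27025 genes. A CCAAT box stood in 21 of 26 members (80.8%) and in 13 of 14 sterol enzymes, against 41.1% of all genes, and in 4 of 7 fatty acid enzymes. Windows of 4 genes are shown, that of Hmgcs1 for its element and those of Insig1, Msmo1 and Elovl5 because these genes moved past 1.5-fold in a cell type below. Srebf1 moved past 1.5-fold too, but its windows, at several starts and not all with a motif, are not shown. Capitals mark both motifs on either strand, and a match is a description of letters only.
Hmgcs1 (GRCm38.p6 chr13:119690101-119690400, + strand): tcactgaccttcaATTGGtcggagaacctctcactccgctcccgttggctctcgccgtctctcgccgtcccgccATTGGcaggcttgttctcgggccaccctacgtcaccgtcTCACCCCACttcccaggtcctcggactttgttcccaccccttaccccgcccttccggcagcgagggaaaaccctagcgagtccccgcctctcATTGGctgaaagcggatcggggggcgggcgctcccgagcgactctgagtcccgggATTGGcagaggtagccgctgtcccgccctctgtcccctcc
Insig1 (GRCm38.p6 chr5:28071162-28071461, + strand): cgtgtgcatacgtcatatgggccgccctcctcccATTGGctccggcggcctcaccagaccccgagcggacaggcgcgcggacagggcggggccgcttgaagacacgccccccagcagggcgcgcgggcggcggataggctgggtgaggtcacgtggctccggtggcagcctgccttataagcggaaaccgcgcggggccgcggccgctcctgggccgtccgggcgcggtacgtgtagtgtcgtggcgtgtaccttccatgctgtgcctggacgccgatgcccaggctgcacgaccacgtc
Msmo1 (GRCm38.p6 chr8:64733529-64733828, - strand): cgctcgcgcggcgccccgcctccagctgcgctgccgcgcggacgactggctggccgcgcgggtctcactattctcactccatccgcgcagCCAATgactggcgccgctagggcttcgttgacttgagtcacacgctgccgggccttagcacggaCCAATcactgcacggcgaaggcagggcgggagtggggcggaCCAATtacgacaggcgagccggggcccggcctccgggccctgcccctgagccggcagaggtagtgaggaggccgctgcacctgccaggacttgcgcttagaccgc
Elovl5 (GRCm38.p6 chr9:77917115-77917414, + strand): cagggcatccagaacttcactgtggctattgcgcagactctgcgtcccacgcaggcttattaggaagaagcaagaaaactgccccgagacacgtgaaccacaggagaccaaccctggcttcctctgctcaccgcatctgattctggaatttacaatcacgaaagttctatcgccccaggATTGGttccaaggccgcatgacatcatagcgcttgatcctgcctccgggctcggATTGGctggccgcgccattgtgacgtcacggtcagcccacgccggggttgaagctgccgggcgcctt

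Among the 6 types, astrocyte-like nuclei held the highest level of most of these genes, with some leads within counting error. In both libraries 20 of the 33 members were highest there, among them 12 sterol enzymes, Insig1, Srebf1, Srebf2, Stard4, Fasn, Scd1, Fads1 and Fads2. The lead over the next type was clear of counting error in both libraries for 13 of the 20, in 1 library for Cyp51 and Sc5d, and in neither for Hmgcs1, Mvk, Stard4, Fasn and Scd1. Clusters were built from all genes, these included, so the order of cell types is a description. Msmo1, which removes methyl groups at carbon 4 of the sterol ring, reached 181 UMIs per 1000000 in vehicle and 283 in OLE in astrocyte-like nuclei, 2.51-fold (1.98 to 3.18) and 4.34-fold (3.46 to 5.45) above the next type. Fads1, the delta-5 desaturase of polyunsaturated fatty acids, stood at 103 and 108, 3.32-fold (2.12 to 5.34) and 2.55-fold (1.64 to 4.06) above the next. Fads2, the delta-6 desaturase, stood at 153 and 148, against 54.6 and 26.6 in OPC-like nuclei. It was close to 0 in the other glia, with 3 and 6 UMIs in oligodendrocyte-like nuclei and 1 and 0 in microglia-like nuclei. Idi1, the isopentenyl diphosphate isomerase, was also clear of the next type, at 3.22-fold (1.58 to 6.59) and 2.12-fold (1.15 to 3.94). Hmgcs1, the HMG-CoA synthase, was not: its lead over microglia-like nuclei was 1.12-fold (0.72 to 1.75) and 1.28-fold (0.86 to 1.94). Thinned to 1000 UMIs a nucleus, 50.4% (41.1 to 59.7) and 56.6% (47.9 to 65.1) of astrocyte-like nuclei held a UMI of a sterol enzyme. The shares were 21.8% and 20.2% in OPC-like nuclei and between 22.9% and 30.5% in the other 4 types. In the low-UMI clusters, outside the 6 types, they were 44.2% (42.2 to 46.2) and 48.2% (45.9 to 50.5), and these intervals overlapped those of astrocyte-like nuclei. Unthinned shares were 92.4% and 97.1% in astrocyte-like nuclei. No cell type lacks these genes, so a background share could not be given.

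Oligodendrocyte-like nuclei led for Acaca and Scd2. Scd2, a stearoyl-CoA desaturase that makes oleate, stood there at 560 in vehicle and 886 in OLE, 1.84-fold (1.60 to 2.13) and 1.97-fold (1.76 to 2.20) above astrocyte-like nuclei, and at 144 and 257 in OPC-like, 164 and 132 in microglia-like, 56.8 and 81.2 in glutamatergic-like and 51.0 and 73.7 in GABAergic-like nuclei. Acaca, the acetyl-CoA carboxylase that starts fatty acid synthesis, stood at 558 and 536 in oligodendrocyte-like nuclei, 1.46-fold above microglia-like nuclei in each library. Elovl6 was highest in OPC-like nuclei at 168 and 169, but its lead over oligodendrocyte-like nuclei was within counting error (1.06-fold, 0.86 to 1.30, in vehicle). Acly, the ATP citrate lyase, was highest in microglia-like nuclei at 48.3 and 60.2, with a lead over astrocyte-like nuclei that was within counting error. Cyp46a1, the neuronal cholesterol 24-hydroxylase, was highest among the 6 types in GABAergic-like nuclei at 45.4 and 48.8, next to glutamatergic-like nuclei at 39.9 and 46.4, and it was higher still in the low-UMI clusters, at 131 and 110. Pmvk, Lss, Hsd17b7, Scap, Acat2, Elovl1 and Elovl5 had a different highest type in each library. Fdps, the farnesyl diphosphate synthase, could not be read, with 4 and 2 UMIs over all retained nuclei, and RNAs annotated as Gm22935 and Gm43738 overlap it on the same strand.

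**Figure D1:**
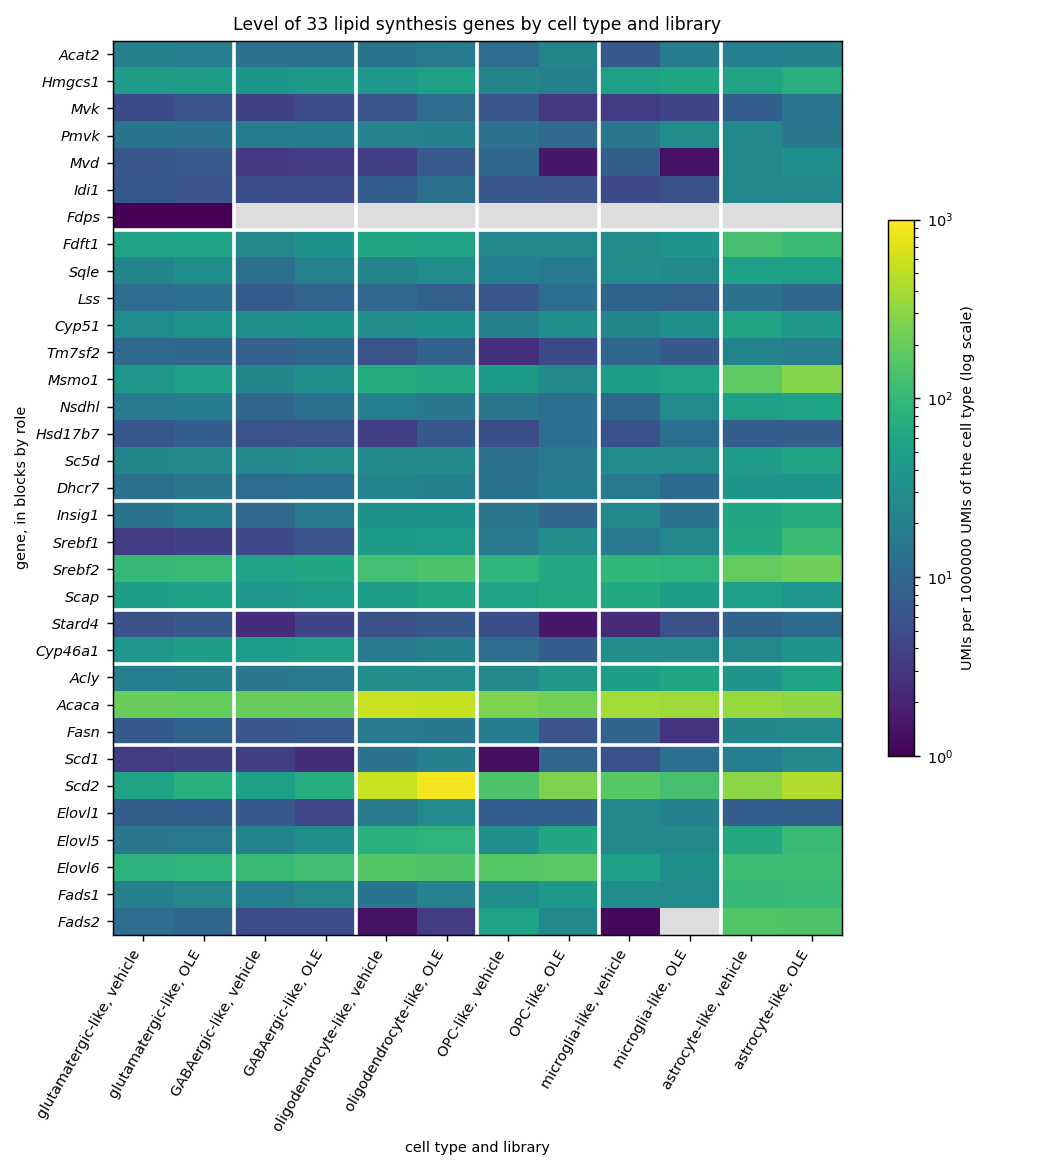
Heat map of the level of each of the 33 genes (rows, in blocks by role) in each cell type and library (columns), as UMIs per 1000000 UMIs of that cell type on a log colour scale from 1 to 1000; grey marks 0 UMIs and values under 1 take the darkest colour. The astrocyte-like columns are brightest for most sterol enzymes (Msmo1 181 and 283) and the oligodendrocyte-like columns for Scd2 (560 and 886).

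Summed over each branch, both branches were higher with OLE in neurons, by little. The 17 sterol enzymes together stood at 330 UMIs per 1000000 in vehicle and 365 in OLE in glutamatergic-like nuclei, a log2 ratio of OLE to vehicle of 0.14 (0.11 to 0.18), and at 245 and 288 in GABAergic-like nuclei, 0.23 (0.14 to 0.33). The 10 fatty acid enzymes stood at 435 and 462 (0.09, 0.06 to 0.12) and at 438 and 483 (0.14, 0.07 to 0.21). Scaling by the median ratio of genes in place of total UMIs lowered the glutamatergic-like values to 0.076 and 0.019, since the median gene there was already at 0.07. In GABAergic-like nuclei the fatty acid sum was 0.063 (-0.0092 to 0.14) by that scaling, and it turned to -0.063 (-0.39 to 0.26) when each nucleus was thinned to 1000 UMIs.

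In glia the sterol sum was 370 and 393 in oligodendrocyte-like nuclei (0.09, -0.06 to 0.24) and 236 and 244 in OPC-like nuclei (0.05, -0.27 to 0.36), both within counting error. The fatty acid sum was higher with OLE in both, at 1451 and 1777 (0.29, 0.22 to 0.36) and at 736 and 851 (0.21, 0.04 to 0.38). Without Scd2 the fatty acid sum of oligodendrocyte-like nuclei was at 0.00 (-0.10 to 0.10). Within their sterol sum the mevalonate block was higher with OLE, with 205 and 215 UMIs (0.36, 0.08 to 0.65). The path from squalene to cholesterol was not, with 602 and 484 UMIs (-0.02, -0.20 to 0.15). This order is opposite to that in neurons below. In OPC-like, microglia-like and astrocyte-like nuclei the intervals of both blocks held 0. Microglia-like nuclei had a sterol sum of 302 and 365 (0.27, 0.02 to 0.53) and a fatty acid sum of 746 and 682 (-0.13, -0.30 to 0.04). Sterol enzymes there made 28.8% (25.9 to 31.9) of the UMIs of both branches in vehicle and 34.9% (31.5 to 38.4) in OLE. That sterol sum rests on 263 and 261 UMIs, and its interval held 0 with likely doublets kept (0.17, -0.06 to 0.41), with clustering on log-normalized counts (0.23, -0.03 to 0.49) and without nuclei of 5% or more mitochondrial UMIs (0.22, -0.04 to 0.48). Astrocyte-like nuclei held 757 and 855 for the sterol sum (0.18, 0.02 to 0.33) and 1180 and 1362 for the fatty acid sum (0.21, 0.08 to 0.33). Neither held when likely doublets were kept, at -0.029 (-0.16 to 0.10) and 0.017 (-0.09 to 0.12), and without Msmo1 the sterol sum was -0.01 (-0.20 to 0.18).

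**Figure D2:**
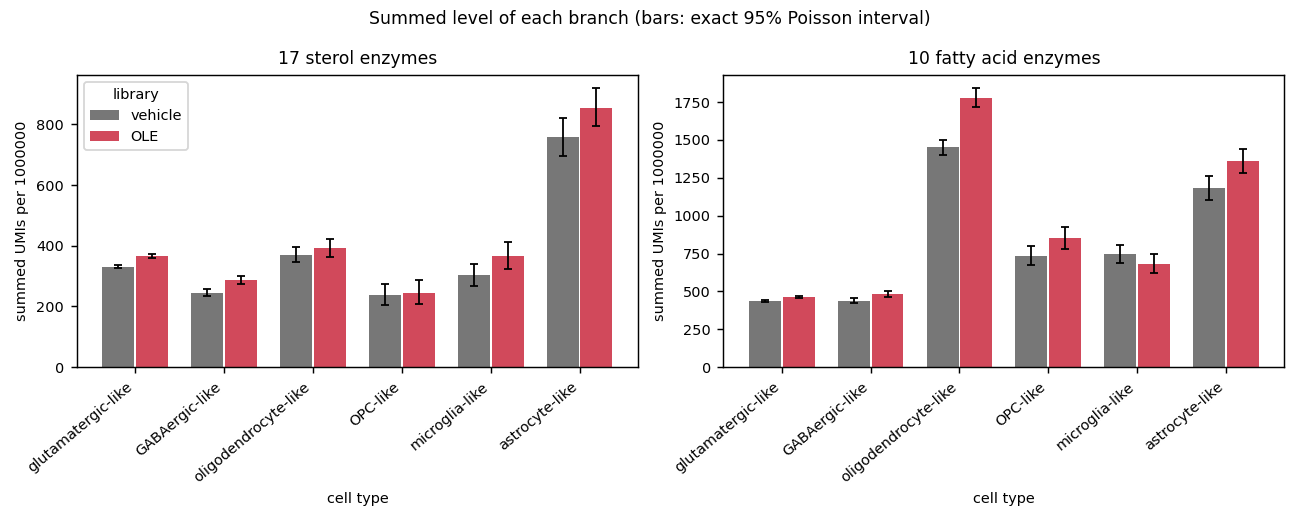
Summed level of the 17 sterol enzymes (left) and the 10 fatty acid enzymes (right), as UMIs per 1000000, in each cell type for the vehicle (grey) and OLE (red) libraries; error bars are exact Poisson intervals. The sterol sum is highest in astrocyte-like nuclei (757 and 855) and the fatty acid sum in oligodendrocyte-like nuclei (1451 and 1777).

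A member was counted as moved in a cell type at a ratio of at least 1.5-fold among genes with at least 100 UMIs there over both libraries. Of the 33 members, 32 reached that number in glutamatergic-like nuclei, 22 in GABAergic-like, 15 in oligodendrocyte-like, 12 in astrocyte-like, 4 in OPC-like and 3 in microglia-like nuclei, which gave 88 pairs of a gene and a type. Of these, 7 were at least 1.5-fold higher with OLE (7.95%, against 3.61% of the pairs of all genes) and 0 at least 1.5-fold lower (against 0.72%). By type the count of higher members was 0 of 32 in glutamatergic-like (3.67% of all genes), 2 of 22 in GABAergic-like (4.9%), 1 of 15 in oligodendrocyte-like (3.04%), 1 of 4 in OPC-like (2.71%), 0 of 3 in microglia-like (2.14%) and 3 of 12 in astrocyte-like nuclei (2.79%). The count depended on the choices: it was 3 of 99 pairs with likely doublets kept and 2 with every nucleus thinned to 1000 UMIs. The interval lay above 0 for 27 pairs (against 18.4% of all pairs) and below 0 for 2, Acaca and Fads2 in glutamatergic-like nuclei (against 7.73%).

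Scd2 (GRCm38 chr19:44293674-44306864, + strand) was above 0 in 5 of the 6 types, and past 1.5-fold in 2 of them. In oligodendrocyte-like nuclei it had 1223 UMIs in vehicle and 1577 in OLE (0.66, 0.55 to 0.77 on the log2 scale), and in OPC-like nuclei 111 and 164 (0.83, 0.48 to 1.19). In 3 more types it stayed under 1.5-fold, at 0.57 (0.33 to 0.81) for astrocyte-like nuclei, 0.53 (0.33 to 0.73) for GABAergic-like nuclei and 0.51 (0.44 to 0.59) for glutamatergic-like nuclei. Microglia-like nuclei had 143 and 94 UMIs (-0.32, -0.71 to 0.06), and the low-UMI clusters 2136 and 3303, equal per 1000000 at 324 and 333 (0.04, -0.04 to 0.12). The ratio was above 0 in each of the 13 glutamatergic-like clusters, from 0.32 to 1.02 with a median of 0.59, with the interval above 0 in all 13. Both GABAergic-like clusters were above 0 too, at 0.64 and 0.30, the second with an interval from -0.05 to 0.65. The vehicle levels of the 13 clusters ran from 47.3 to 73.3 and the OLE levels from 59.0 to 110, so that the ranges overlapped while every cluster was higher in OLE. These clusters share their mice and are not replicates. Thinned to 1000 UMIs a nucleus, Scd2 was at 0.71 in oligodendrocyte-like, 0.60 in glutamatergic-like and 0.34 in OPC-like nuclei, and it turned to -0.31 in GABAergic-like nuclei. Oligodendrocyte markers summed to 155 and 167 per 1000000 in GABAergic-like and to 700 and 762 in OPC-like nuclei, higher in OLE, and to 175 and 171 in glutamatergic-like, 455 and 318 in astrocyte-like and 845 and 766 in microglia-like nuclei, lower in OLE. Their part in the Scd2 values was not tested. Its close paralog Scd1 was sparse, with 148 and 157 UMIs in glutamatergic-like nuclei (0.21, -0.12 to 0.55).

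**Figure D3:**
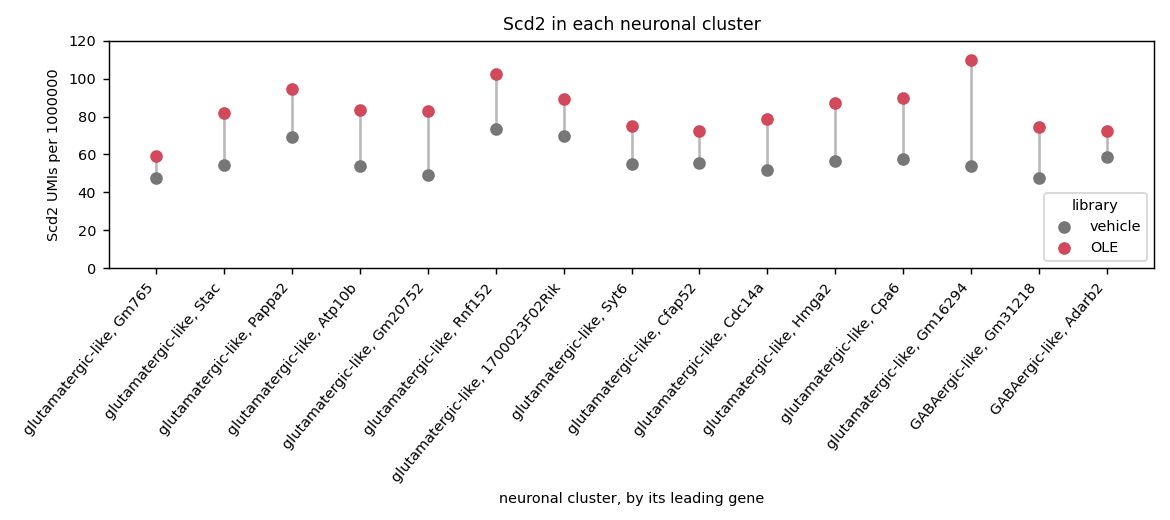
Scd2 level in UMIs per 1000000 in each of the 13 glutamatergic-like and 2 GABAergic-like clusters, named by the gene leading each, in the vehicle (grey) and OLE (red) libraries; lines join the 2 libraries of a cluster. OLE lies above vehicle in every cluster.

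The path from squalene to cholesterol was higher with OLE in neurons while the mevalonate steps before it were not. In glutamatergic-like nuclei 9 of 10 of its genes had a ratio above 0, with a median of 0.20 against 0.07 for all genes. Sqle (GRCm38 chr15:59315077-59331192, + strand), the squalene epoxidase and a control point of the pathway, had 1064 and 1287 UMIs (0.40, 0.29 to 0.52). Msmo1 had 1793 and 2053 (0.32, 0.23 to 0.42), Cyp51, the lanosterol demethylase, 1310 and 1481 (0.31, 0.20 to 0.41), and Sc5d, Dhcr7 and Hsd17b7 lay between 0.19 and 0.24, all 6 with an interval above 0. Fdft1, the squalene synthase, stayed at 0.01 (-0.07 to 0.10), and Tm7sf2, whose gene is overlapped on its strand by Vps51, was at -0.08 (-0.28 to 0.11). The 6 mevalonate genes tested had a median of 0.00, with 3 above and 3 below 0, and their sum moved by 0.02 (-0.04 to 0.08). Idi1 had 302 and 253 UMIs (-0.13, -0.37 to 0.12) and Mvk, the mevalonate kinase, 214 and 239 (0.29, 0.02 to 0.56). The sum of all sterol enzymes was above 0 in 13 of 13 glutamatergic-like clusters, from 0.04 to 0.57, with the interval above 0 in 12.

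In GABAergic-like nuclei all 9 genes tested of the path from squalene to cholesterol were above 0, with a median of 0.36 against 0.08 for all genes, and the 3 mevalonate genes were at -0.08 (Acat2), -0.07 (Pmvk) and 0.14 (Hmgcs1). Sqle rose from 92 to 136 UMIs (0.70, 0.30 to 1.09). Insig1, itself an SREBP target, rose from 77 to 110 (0.65, 0.21 to 1.09) there and had 638 and 759 UMIs (0.38, 0.23 to 0.53) in glutamatergic-like nuclei. Thinned to 1000 UMIs a nucleus, Sqle in GABAergic-like nuclei turned to -0.65 and Insig1 fell to 0.11.

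Among the regulators, Srebf2 was at 0.04 (-0.02 to 0.10) for glutamatergic-like nuclei, 0.24 (0.03 to 0.44) for GABAergic-like nuclei and 0.19 (-0.06 to 0.44) for oligodendrocyte-like nuclei, and had 72 and 41 UMIs (-0.54, -1.13 to 0.03) in OPC-like nuclei. Scap, its escort, was above 0 in the 3 types tested, from 0.12 to 0.34. Cyp46a1 was at 0.22 (0.12 to 0.31) in glutamatergic-like nuclei and Stard4, a sterol carrier of the cytosol, at 0.23 (-0.02 to 0.48). In the low-UMI clusters Cyp46a1 was at -0.25 (-0.38 to -0.12).

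In astrocyte-like nuclei 3 members rose past 1.5-fold. Elovl5, an elongase of polyunsaturated fatty acids, rose from 50 to 95 UMIs (0.72, 0.21 to 1.25), Srebf1 from 52 to 97 (0.69, 0.19 to 1.21) and Msmo1 from 137 to 247 (0.65, 0.34 to 0.96). The lowest were Fdft1 with 99 and 94 UMIs (-0.28, -0.70 to 0.14), Acaca with 264 and 275 (-0.15, -0.40 to 0.10) and Fads2 with 116 and 129 (-0.05, -0.42 to 0.32). With likely doublets kept, Elovl5 was at 0.32, Srebf1 at 0.43 and Msmo1 at 0.35, none of them past 1.5-fold, and thinned to 1000 UMIs a nucleus Msmo1 was at 0.16. In oligodendrocyte-like nuclei Sqle had 50 and 55 UMIs (0.43, -0.15 to 1.01) and Hmgcs1 87 and 91 (0.36, -0.08 to 0.80), while Fdft1 (-0.21, -0.61 to 0.18), Msmo1 (-0.14, -0.50 to 0.21) and Elovl6 (-0.10, -0.33 to 0.14) lay lowest.

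Acaca did not follow Scd2. Its ratio was below 0 in all 6 types, from -0.15 in OPC-like and astrocyte-like nuclei to -0.01 in GABAergic-like nuclei, and it was -0.05 (-0.10 to -0.01) in glutamatergic-like nuclei, from 9241 to 8142 UMIs, the count with the most precision of all members. In every other type its interval held 0. By cluster, Acaca was above 0 in 4 of 13 glutamatergic-like clusters, with a median of -0.02 and the interval below 0 in 3. It was above 0 in 1 of 2 GABAergic-like clusters. Thinned to 1000 UMIs a nucleus it was at 0.27 in OPC-like and 0.15 in astrocyte-like nuclei, and with likely doublets kept at 0.0036 in GABAergic-like nuclei. Fasn, the fatty acid synthase, had 318 and 352 UMIs (0.28, 0.05 to 0.50) in glutamatergic-like nuclei and fell under the count minimum elsewhere. Elovl6, which lengthens palmitate, lay between -0.10 and 0.17 in the 5 types tested. Fads1 was at 0.27 (0.14 to 0.40) and Fads2 at -0.20 (-0.39 to -0.02) in glutamatergic-like nuclei, on opposite sides of 0. The members not named so far in these nuclei, Acat2, Elovl1, Pmvk, Hmgcs1, Elovl5, Lss, Acly, Nsdhl, Mvd and Srebf1, lay between -0.06 and 0.22, and each of their intervals held 0.

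**Figure D4:**
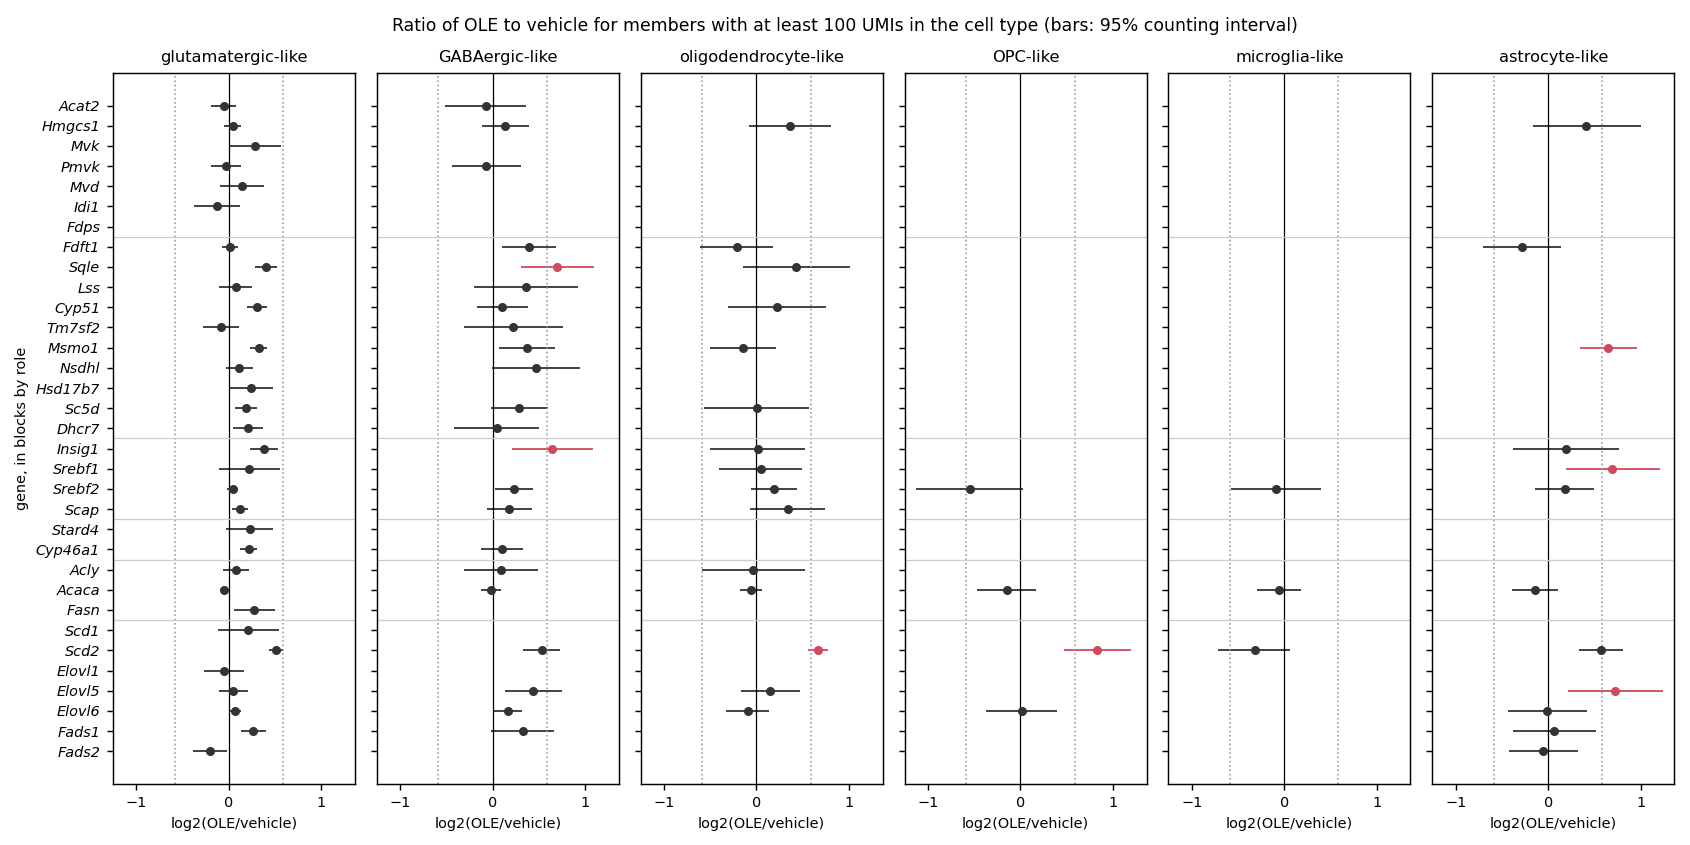
Log2 ratio of OLE to vehicle for each member (rows, in blocks by role) with at least 100 UMIs in a cell type (panels); bars are the 95% counting intervals, dotted lines mark 1.5-fold and red marks members at or past it on the higher side. Scd2 lies right of 0 in 5 of 6 panels and Acaca left of 0 in all 6.

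Members divide also by place, 22 whose protein is made at the ER membrane and 11 whose protein is of the cytosol. The difference between the 2 sets was not tested. Summed UMIs of the ER membrane members were higher with OLE by 0.18 (0.15 to 0.20) in glutamatergic-like, 0.27 (0.21 to 0.34) in GABAergic-like, 0.35 (0.28 to 0.42) in oligodendrocyte-like, 0.23 (0.07 to 0.40) in OPC-like and 0.26 (0.15 to 0.36) in astrocyte-like nuclei, and by -0.10 (-0.27 to 0.07) in microglia-like nuclei. The cytosol members were between -0.12 and 0.06 in all 6, with every interval across 0, and in microglia-like nuclei they stood above the ER membrane members, at 0.06 (-0.14 to 0.25). Without Scd2 the ER membrane sum was 0.09 (-0.0045 to 0.19) in oligodendrocyte-like and 0.05 (-0.13 to 0.24) in OPC-like nuclei, and it was 0.18 (0.07 to 0.30) for astrocyte-like nuclei, 0.14 (0.11 to 0.16) for glutamatergic-like nuclei and 0.24 (0.17 to 0.31) for GABAergic-like nuclei. All 7 pairs past 1.5-fold were ER membrane members (7 of 66 pairs, 10.6%, against 0 of 22 for cytosol members and 3.61% of the pairs of all genes). The 22 cytosol pairs are too few to set 0 apart from that share. As given above, the total of 7 was lower with likely doublets kept and with thinned nuclei. Chosen lists of genes outside lipid synthesis were summed too. They include Calr, Hspa5, Atp2a2, Itm2b, Cst3 and Hsp90ab1, which the authors reported as higher with OLE in these libraries. The direction of these sums was therefore partly known beforehand. The 28 other ER-translated genes summed to between 0.32 and 0.69 in the 6 types, and the 28 other cytosol-translated genes to between 0.11 and 0.50. In glutamatergic-like nuclei these were 0.52 and 0.34, against 0.18 for the ER membrane members, and 7 nuclear-retained RNAs summed to 0.14. Members under 30 kb summed to 0.24 there and longer members to 0.01, beside 0.15 and -0.03 for all genes of these lengths. In the low-UMI clusters ER membrane and cytosol members were both at 0.03, with other ER-translated genes at 0.08 and other cytosol-translated genes higher, at 0.27 (0.24 to 0.29). The part of gene length and of these wider differences in the members' values was not tested.

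**Figure D5:**
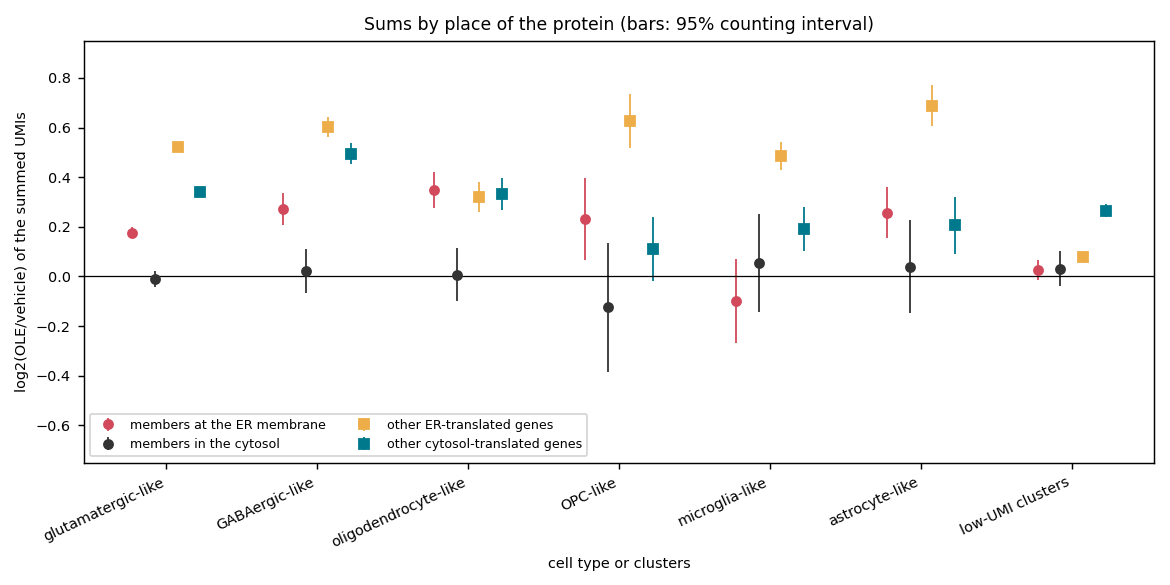
Log2 ratio of OLE to vehicle of the summed UMIs of ER membrane members (red), cytosol members (black), 28 other ER-translated genes (yellow squares) and 28 other cytosol-translated genes (blue squares) in each cell type and in the low-UMI clusters; bars are 95% counting intervals. Other ER-translated genes lie above the ER membrane members in 5 of 6 types, with oligodendrocyte-like nuclei (0.32 and 0.35) the exception. The lists of other genes include some that the authors reported as higher with OLE.

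Of 28 other genes of the same pathways, 4 of 102 gene and type pairs were past 1.5-fold higher (3.92%, near the 3.61% of all pairs) and 0 lower. They were Ebp, the sterol isomerase after Cyp51, in glutamatergic-like nuclei (248 and 343 UMIs, 0.60, 0.36 to 0.84), Npc1 (203 and 293, 0.82, 0.56 to 1.09) and Npc2 (72 and 91, 0.63, 0.17 to 1.10), which export cholesterol from lysosomes, in oligodendrocyte-like nuclei, and Lpcat3, a phospholipid acyltransferase, in astrocyte-like nuclei (87 and 151, 0.59, 0.20 to 0.99). In glutamatergic-like nuclei the 26 tested had a median of 0.10, close to the 0.07 of all genes.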

How the data were processed

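The authors isolated nuclei from frozen entorhinal cortex of APP/PS1 mice, aligned the reads with Cell Ranger 3.0.1 to the mm10 pre-mRNA genome and deposited raw UMI counts of 31053 genes per nucleus. Per the labels Seurat 4.0.4 was also used. The files hold these 2 libraries alone.

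Doublets were scored with Scrublet (scanpy 1.11.5), whose automatic threshold marked 8 and 7 nuclei. The top 5% of scores was removed, 372 vehicle and 311 OLE nuclei. Nuclei were normalized by SCTransform (version 0.4.2, in Seurat 5.3.0) and clustered on 3000 variable genes, 30 components and 20 neighbours at resolution 0.4. A cluster was named after the class with the highest markers if at least 3 were in 25% of nuclei and the second class stood under 0.4 of the first, a rule set after the clusters were seen. UMIs were summed per library and type. Intervals are exact Poisson for levels and exact binomial (Clopper-Pearson) for ratios and shares. No p-value is given. The interval was tested on counts simulated for all nuclei together with counting error alone. That test cannot show how the interval does with spread between mice or nuclei. Values in full are for the 3 highest and 3 lowest ratios per type, the rest as ranges. Sums without their largest gene or without Scd2 were added after seeing the data. Gene positions are GRCm38, GENCODE vM21 and RefSeq. The members and lists were chosen with earlier results of these data known.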

Additional observations from a re-analysis of the deposited data

How the results depend on the processing

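Sums of the branches and counts of members were recomputed under 9 other settings. Clustering on log-normalized counts, leaving out nuclei with 5% or more mitochondrial UMIs, and leaving out glial nuclei with over 5% neuronal marker UMIs moved none of them past its counting interval. Of 68 recomputed sums 58 stayed within it. By median ratio scaling the glutamatergic-like sterol sum was 0.076, and the fatty acid sum was 0.019 there and 0.063 for GABAergic-like nuclei. Thinned to 1000 UMIs, the sterol sum of glutamatergic-like nuclei was 0.10, that of GABAergic-like nuclei 0.11 and that of microglia-like nuclei 0.56, while the fatty acid sums of the neurons were 0.13 (glutamatergic-like) and -0.063 (GABAergic-like). With likely doublets kept, the astrocyte-like sums were -0.029 (sterol) and 0.017 (fatty acid). Members past 1.5-fold higher numbered 3 with doublets kept, 2 thinned, 4 at a minimum of 200 UMIs and 31 with no minimum. Members past 1.5-fold lower numbered 1 with doublets kept, 1 thinned, 4 at a minimum of 50 UMIs and 14 with no minimum. Thinned, Sqle and Scd2 in GABAergic-like nuclei turned to -0.65 and -0.31. The cause was not tested. No paired analysis was possible because each group is 1 library. For the same reason no replicate could be left out. In OPC-like and microglia-like nuclei 4 and 3 members were above the count minimum.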
